A study of Mus musculus with 8 samples.

Results

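This account covers 35 genes of glucose breakdown and of the response to low oxygen, chosen by name. Of these, 20 carry out or feed glycolysis: the glucose transporters, the enzymes from hexokinase to lactate dehydrogenase, and the lactate transporters. The other 15 act in the response to hypoxia or are induced by it. A gene counted as measured where a probe set of the array carried its symbol and no other, which held for 32 of the 35, namely 18 glycolysis genes and 14 hypoxia response genes, among 18193 genes measured in all. Gpi1 and Eno1 had no probe set with 1 symbol, and those of Bnip3l are shared with a pseudogene. All 32 measured members passed the filter on dim signal and were among the 12982 genes tested. Where a gene had several probe sets, the one with the highest mean over all arrays stands for it.

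Glycolysis splits glucose into pyruvate in the cytosol and yields ATP without oxygen, and lactate dehydrogenase then turns pyruvate into lactate, which monocarboxylate transporters carry out of the cell. When oxygen is scarce, prolyl hydroxylases of the Egln family stop marking the transcription factor Hif1a for destruction, and Hif1a with its partner Arnt binds the short DNA core ACGTG or GCGTG near its target genes. Known targets include glycolytic enzymes, the vessel growth factor Vegfa and the hydroxylase genes themselves, and pluripotent cells are known for a high glycolytic rate.

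The series asked how the Polycomb protein Bmi1 bears on blood formation from CCE cells, a line of embryonic stem (ES) cells of mouse strain 129/Sv kept with leukemia inhibitory factor. It held 8 Affymetrix arrays of total RNA in 4 groups of 2 arrays: ES cells transduced by lentivirus with a mouse Bmi1 cDNA, control ES cells (1 array of untreated cells and 1 of empty vector cells), and embryoid bodies, the aggregates in which ES cells differentiate, grown for 10 days in bacterial dishes from Bmi1 cells or from empty vector cells. Transduced cells were sorted for eGFP as a population after some passages, and no clones are named. Whether replicates were grown as separate cultures is not said, so the p-values reflect only how far these arrays lie apart, which can be technical.

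The promoters of 6 members with large stage differences, described below, are shown as examples in which the letters to which Hif1a binds can be read. Others with large stage differences, such as Vegfa and Eno2, are not shown. The window of Eno2 and a window of Vegfa held neither core. Each runs from 250 bases before to 50 bases after the annotated start, 5′ to 3′ on the gene's strand, from RefSeq on build GRCm38.p6. Capitals mark each ACGTG (the A form of the core) or GCGTG (its G form) on either strand, the opposite strand being read as CACGT or CACGC.
Bnip3: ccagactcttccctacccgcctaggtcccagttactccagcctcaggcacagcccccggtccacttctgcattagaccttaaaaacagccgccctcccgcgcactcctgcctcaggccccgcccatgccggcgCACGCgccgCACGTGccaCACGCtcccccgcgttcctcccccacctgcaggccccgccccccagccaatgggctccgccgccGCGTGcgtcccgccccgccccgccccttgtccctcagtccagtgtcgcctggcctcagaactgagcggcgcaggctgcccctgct
P4ha2: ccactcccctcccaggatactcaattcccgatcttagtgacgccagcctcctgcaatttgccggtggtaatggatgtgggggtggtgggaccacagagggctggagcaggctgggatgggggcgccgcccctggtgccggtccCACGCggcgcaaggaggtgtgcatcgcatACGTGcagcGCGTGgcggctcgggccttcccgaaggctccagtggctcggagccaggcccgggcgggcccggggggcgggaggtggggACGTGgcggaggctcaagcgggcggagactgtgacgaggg
Egln1: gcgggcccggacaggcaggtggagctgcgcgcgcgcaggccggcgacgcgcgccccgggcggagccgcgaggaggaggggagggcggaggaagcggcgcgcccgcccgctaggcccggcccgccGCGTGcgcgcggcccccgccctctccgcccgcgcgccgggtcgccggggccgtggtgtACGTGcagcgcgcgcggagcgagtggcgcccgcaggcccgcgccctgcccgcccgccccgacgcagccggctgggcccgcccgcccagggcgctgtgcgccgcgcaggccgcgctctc
Hk2: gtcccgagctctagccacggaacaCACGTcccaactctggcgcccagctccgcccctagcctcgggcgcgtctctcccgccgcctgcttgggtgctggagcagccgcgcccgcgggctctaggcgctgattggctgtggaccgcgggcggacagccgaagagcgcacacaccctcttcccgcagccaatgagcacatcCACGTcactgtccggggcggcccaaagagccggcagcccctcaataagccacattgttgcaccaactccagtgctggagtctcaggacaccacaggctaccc
Pgam1: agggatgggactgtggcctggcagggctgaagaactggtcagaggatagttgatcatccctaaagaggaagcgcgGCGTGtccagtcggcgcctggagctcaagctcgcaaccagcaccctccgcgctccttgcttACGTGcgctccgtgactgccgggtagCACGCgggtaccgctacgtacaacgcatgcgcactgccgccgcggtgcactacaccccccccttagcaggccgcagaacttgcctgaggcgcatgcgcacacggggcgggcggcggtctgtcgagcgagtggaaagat
Ldha: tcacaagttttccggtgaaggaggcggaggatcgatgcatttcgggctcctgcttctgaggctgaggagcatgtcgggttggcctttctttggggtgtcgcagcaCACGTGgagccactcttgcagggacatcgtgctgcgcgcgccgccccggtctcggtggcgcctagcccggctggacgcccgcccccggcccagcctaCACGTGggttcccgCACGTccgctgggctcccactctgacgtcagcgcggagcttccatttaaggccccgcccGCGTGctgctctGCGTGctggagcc
The window of Bnip3, a mitophagy receptor, lies at chr7:138909457-138909756 (minus strand) and held 2 matches to the A form and 3 to the G form. That of P4ha2, a collagen prolyl hydroxylase, lies at chr11:54100674-54100973 (plus strand) and held 2 of each. That of the oxygen sensor Egln1 lies at chr8:124949205-124949504 (minus strand) and held 1 of each. Among the glycolytic enzymes, hexokinase 2 has its window at chr6:82774405-82774704 (minus strand) with 2 matches to the A form. The phosphoglycerate mutase gene Pgam1 has its window at chr19:41911621-41911920 (plus strand), with 1 of the A form and 2 of the G form. The first of the windows of Ldha, for a lactate dehydrogenase subunit, lies at chr7:46845554-46845853 (plus strand) with 5 of the A form and 2 of the G form. A CACGTG counts as 2 overlapping matches to the A form, since both strands read it.

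RefSeq windows were found for 32 of the 35 genes, 47 windows in all, and Slc2a3, Ndrg1 and Bnip3l had none in the table. Either core stood in 36 of the 47 windows (76.6%), in 23 of 30 (76.7%) of the glycolysis genes and in 13 of 17 (76.5%) of the hypoxia response genes. Over all 32851 windows of the table the share was 43.8%, and over the 21263 windows of protein-coding genes 49.3%. The windows of the members were also richer in G and C, with a median of 63.3% against 56.3% in protein-coding genes. ACGTG stood in 51.1% of member windows and 19.6% of all, GCGTG in 57.4% and 32.4%, and CACGTG in 10.6% and 7.15%. A match describes the letters only and says nothing of binding, and the genes that were higher and those that were lower in embryoid bodies both held such matches.

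By their distributions of values the 8 columns formed 3 sets: embryoid bodies of replicate 1, embryoid bodies of replicate 2, and all ES cells. Sorted values differed on average by 0.00994 to 0.0325 log2 units between arrays of a set and by 0.189 to 0.442 between sets. Each embryoid body set holds 1 array labelled Bmi1 and 1 vector array, so that comparison is also given within each set. No set holds arrays of both stages, so stage differences of any size cannot be told apart from differences between sets. Bmi1 itself gave less signal under the Bmi1 label than in controls: 7.48 and 8.51 against 9.35 and 9.67 at the embryoid body stage, and 5.68 and 6.28 against 7.41 and 7.74 at the ES cell stage. These differences were -1.51 ± 0.37 and -1.59 ± 0.37, with limma adjusted p = 0.309 and 0.265, and 0.0404 and 0.0414 with the set as a block. Because the signal goes against the labels, the samples are called "labelled Bmi1" throughout, and it is not known here whether the probes read the transduced cDNA. The stages bore out their labels: the summed signal of 8 pluripotency markers such as Pou5f1 and Nanog ranged from 61078 to 74342 in ES cells and from 6620 to 20949 in embryoid bodies, on a linear scale.

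All values that follow are log2 signals of 1 probe set, and differences are log2 differences ± SE of the moderated fit, 2 arrays against 2. "Called" means a limma p-value of at most 0.05 after Benjamini-Hochberg adjustment over all genes tested. Signals are compared between arrays and not between genes.

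Embryoid bodies were compared with ES cells first, once in vector or control arrays and once in arrays labelled Bmi1. The comparisons share no array, but both run across the same distribution sets. Hypoxia response genes were for the most part higher in embryoid bodies: 9 of the 14 rose and 3 fell in vector embryoid bodies against control ES cells, where 22.7% of all genes tested rose and 35.8% fell. In the arrays labelled Bmi1 the same 9 rose and 2 fell, where 21.2% of all genes rose and 38% fell. Of the 18 glycolysis genes 3 rose and 6 fell in the vector or control arrays, and 3 rose and 7 fell in those labelled Bmi1. In both, 2 rose and 5 fell. How many of all genes were called the same way in both comparisons was not counted. With the embryoid body set as a term of the fit 24 and 23 of the 32 members were called in these comparisons, and so were 74.8% and 74.4% of all genes. The median log2 difference was 2.07 and 1.44 in the hypoxia list, -0.26 and -0.35 in the glycolysis list, and -0.24 and -0.27 over all genes tested.

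Rescaling the columns moved these counts, for the members and for all genes. After quantile normalization of the 8 columns 8 glycolysis genes were called higher and 3 lower in vector embryoid bodies, where 25.1% of all genes were called higher and 26.3% lower. After median centring 2 were higher and 11 lower, where 17% and 46.7% of all genes were. In the arrays labelled Bmi1 quantile normalization gave 6 higher and 3 lower (24.1% and 26.7% of all genes), and centring 2 higher and 10 lower (14.5% and 49.1%). For the hypoxia list they gave 10 higher and 0 lower, and 9 higher and 4 lower, in the vector or control arrays. In those labelled Bmi1 they gave 9 higher and 0 lower, and 8 higher and 4 lower. The median difference of all genes was -0.04 and -0.02 in the 2 stage comparisons after quantile normalization and -0.56 and -0.62 after centring.

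Of the 21 members called in the vector or control arrays, 14 were called under each of the 16 alternatives in which they were tested, namely Hk2, Pgam1, Eno2, Ldha, Slc16a3 and the 9 hypoxia response genes that rose. Of the 21 called in the arrays labelled Bmi1 11 were, namely Hk2, Aldoc, Pgam1, Ldha, Egln1, Egln3, Bnip3, Vegfa, Ndrg1, P4ha1 and P4ha2. Of the 11 members not called in each comparison, 10 and 9 were called under at least 1 alternative, all but Ankrd37 in the vector or control arrays and all but Ankrd37 and Pfkl in those labelled Bmi1. After quantile normalization the sign turned for 6 glycolysis and 2 hypoxia response genes in the vector or control arrays. In those labelled Bmi1 it turned for 2 and 3. After centring it turned for 1 and 0, and for 5 and 0. Under the alternatives that left out no array, 47.2% to 74.8% of all genes tested were called in the vector or control arrays. In those labelled Bmi1 the range was 47.6% to 74.4%. Calls kept or gained and signs turned were not counted over all genes. These counts therefore do not show whether members were more stable than other genes.

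**Figure D1:**
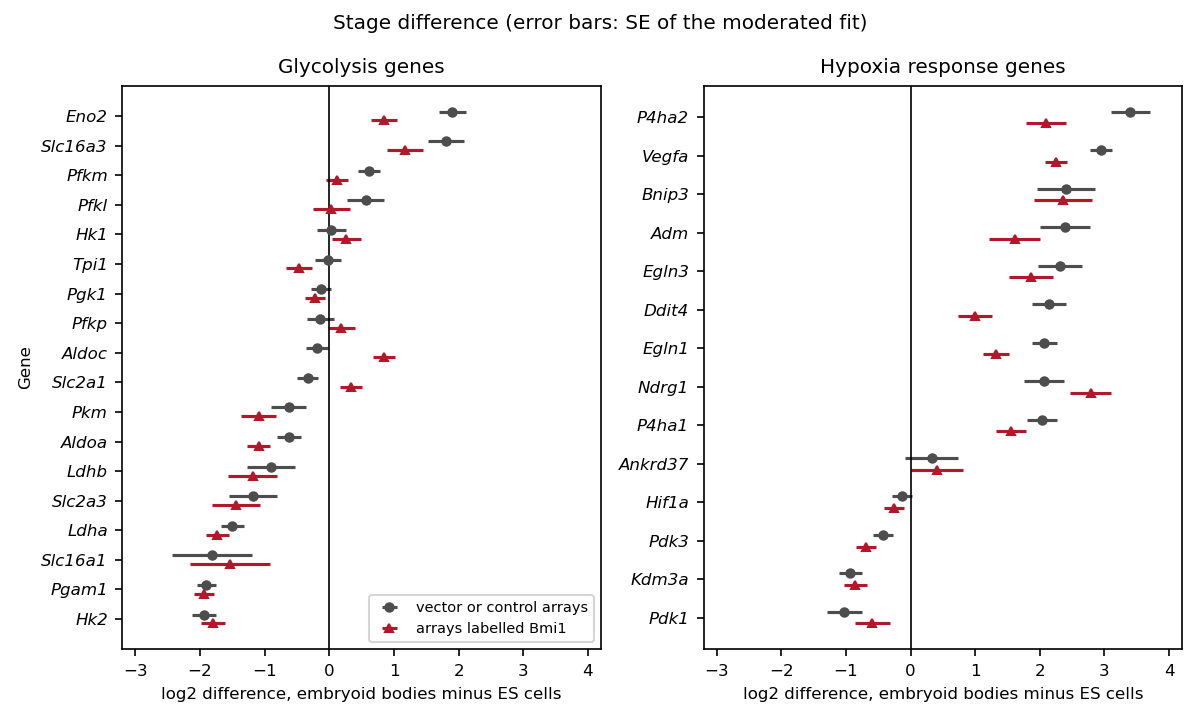
The log2 difference of each member, embryoid bodies minus ES cells, is plotted on the horizontal axis for glycolysis genes (left) and hypoxia response genes (right). Circles stand for vector or control arrays, triangles for arrays labelled Bmi1, and bars for the SE of the moderated fit (2 arrays against 2). In the right panel 9 genes lie well above 0 in both comparisons, while Hk2, Pgam1 and Ldha lie lowest or nearly so on the left.

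Glucose enters the cell through transporters of the Slc2a family. Slc2a3, the high-affinity transporter, read 11.91 and 12.95 in vector embryoid bodies and 11.64 and 12.37 in those labelled Bmi1, against 13.59 and 13.62 in control ES cells and 13.41 and 13.50 in ES cells labelled Bmi1. Every embryoid body array lay below every ES cell array, with differences of -1.18 ± 0.37 (adjusted p = 0.0276) and -1.45 ± 0.37 (adjusted p = 0.0123). Both lost their call after quantile normalization and without either ES cell array or replicate 1 of the embryoid bodies of the comparison. A pair of dimmer probe sets of the gene went the other way in the vector arrays, by 2.30 and 3.05, and the mean of its probe sets gave 0.72 and -0.13 with no call. The widely expressed transporter Slc2a1 differed by -0.34 ± 0.17 and 0.33 ± 0.17 between the stages, neither of them called. It was called higher in both after quantile normalization (0.61 and 1.29), and lower in the vector arrays under centring (-0.66) and with the mean of probe sets (-0.71), and the robust prior called both (adjusted p = 0.0381 and 0.0394). Its dimmest probe set was called lower in both (-1.30, adjusted p = 0.00422, and -0.88, adjusted p = 0.0196).

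Hexokinases trap glucose in the cell by adding a phosphate. Hk2, the inducible form, read 10.40 and 10.31 in vector embryoid bodies, 10.08 and 10.47 in those labelled Bmi1, 12.26 and 12.32 in control ES cells and 11.99 and 12.16 in ES cells labelled Bmi1. The stages did not overlap, and Hk2 fell by 1.94 ± 0.19 (adjusted p = 0.000263) and by 1.80 ± 0.19 (adjusted p = 0.000382). After quantile normalization these differences shrank to -1.08 and -0.90, still called. Its constitutive relative Hk1 differed by 0.03 ± 0.22 and 0.26 ± 0.22, with no call, while a dimmer Hk1 probe set was higher by 1.63 and 1.17. The mean of both was called higher (0.83 and 0.72).

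Phosphofructokinase commits sugar to glycolysis and has a liver (Pfkl), a muscle (Pfkm) and a platelet (Pfkp) form. Pfkm read 9.07 and 9.11 in vector embryoid bodies and 8.69 and 8.92 in those labelled Bmi1, against 8.40 and 8.57 and 8.74 and 8.64 in control ES cells and ES cells labelled Bmi1. It rose in the vector arrays by 0.61 ± 0.17 (adjusted p = 0.0174), a call lost under median centring, with array weights (adjusted p = 0.0501) and when either control ES cell array was left out (adjusted p = 0.125 without the untreated array and 0.0598 without the empty vector array). The difference was 0.12 ± 0.17 in the arrays labelled Bmi1, called only after quantile normalization (0.56). Neither Pfkl, at 0.56 and 0.03, nor Pfkp, at -0.14 and 0.19, was called. After quantile normalization Pfkl was called higher in the vector arrays (1.04) and Pfkp in both comparisons (0.46 and 0.79), and Pfkl was also called in the vector arrays with the block (adjusted p = 0.0459). In the vector arrays a dim Pfkl probe set was called lower (-0.90) and a dim Pfkp probe set higher (1.22).

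Aldolase splits the doubly phosphorylated sugar. Aldoa, its main form, fell by 0.63 ± 0.18 (adjusted p = 0.0213) and by 1.09 ± 0.18 (adjusted p = 0.00224), with calls that quantile normalization took away (0.34 and -0.06). The first was also lost without vector replicate 1 or either control ES cell array (adjusted p of 0.0792 to 0.116). Aldoc, the brain form, read 8.50 and 8.63 in embryoid bodies labelled Bmi1 and 7.80 and 7.64 in ES cells labelled Bmi1, with 7.96 and 7.90 in embryoid bodies with vector and 8.21 and 8.02 in control ES cells. It rose in the arrays labelled Bmi1 by 0.85 ± 0.17 (adjusted p = 0.00422), and differed by -0.19 ± 0.17 in the vector or control arrays, where it was called lower under centring alone (-0.51).

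The next enzymes differed from each other. Triose phosphate isomerase Tpi1 and phosphoglycerate kinase Pgk1 were called in neither comparison, with -0.02 and -0.48 for Tpi1 and -0.13 and -0.23 for Pgk1, and a pair of other Pgk1 probe sets had differences above 0, of which 1 was called in the arrays labelled Bmi1 (0.51, adjusted p = 0.0441). Their calls turned with the scaling. Pgk1 was called higher after quantile normalization (0.78 and 0.74) and lower under centring (-0.45 and -0.57). Tpi1 was called higher in the vector arrays after quantile normalization (0.93) and lower in the arrays labelled Bmi1 under centring (-0.82), with the robust prior (adjusted p = 0.0404) and with the block (0.0354). Pgam1, which acts right after Pgk1, read 11.35 and 11.41 in vector embryoid bodies, 11.20 and 11.28 in those labelled Bmi1, 13.29 and 13.27 in control ES cells and 13.22 and 13.13 in ES cells labelled Bmi1. No embryoid body array came near an ES cell array, and Pgam1 fell by 1.90 ± 0.15 (adjusted p = 0.000137) and by 1.94 ± 0.15 (adjusted p = 0.000138). Its differences shrank to -0.98 and -0.93 after quantile normalization, still called.

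Eno2, the neuronal form of enolase, was the glycolysis gene with the largest rise in the vector arrays. It read 6.38 and 6.54 in vector embryoid bodies, 5.86 and 5.43 in those labelled Bmi1, 4.52 and 4.59 in control ES cells and 4.66 and 4.94 in ES cells labelled Bmi1. All 4 embryoid body arrays lay above all 4 ES cell arrays, and the rise was 1.91 ± 0.21 (adjusted p = 0.000396) and 0.85 ± 0.21 (adjusted p = 0.0104). Its dim signal in ES cells limits the size of the difference, and the call in the arrays labelled Bmi1 was lost under both other scalings, without replicate 1 of the embryoid bodies labelled Bmi1 (adjusted p = 0.055) and without replicate 1 of the ES cells labelled Bmi1 (adjusted p = 0.08).

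At the end of the path, pyruvate kinase Pkm was at -0.63 ± 0.27 in the vector or control arrays, not called, and fell by 1.09 ± 0.27 in those labelled Bmi1 (adjusted p = 0.0108). Ldha, the lactate dehydrogenase subunit that favours lactate, read 12.10 and 12.37 in vector embryoid bodies, 11.86 and 12.06 in those labelled Bmi1, 13.82 and 13.66 in control ES cells and 13.73 and 13.67 in ES cells labelled Bmi1. The stages were apart in every array, and Ldha fell by 1.505 ± 0.178 (adjusted p = 0.000549) and by 1.74 ± 0.18 (adjusted p = 0.000365). Quantile normalization shrank the Ldha differences to -0.58 and -0.75, still called. Ldhb, the subunit that favours pyruvate, was at -0.90 ± 0.38 without a call and fell by 1.19 ± 0.38 in the arrays labelled Bmi1 (adjusted p = 0.029). The calls of Pkm and Ldhb did not hold under quantile normalization (-0.08 and -0.39). That of Pkm was also lost without replicate 1 of the embryoid bodies or replicate 2 of the ES cells labelled Bmi1, and that of Ldhb without replicate 1 of the embryoid bodies, any ES cell array, or with the mean of probe sets, and none of its 3 other probe sets was called. In the vector or control arrays both were called lower under centring, with the block (adjusted p = 0.00223 for Pkm and 0.000884 for Ldhb) and without vector replicate 2.

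The lactate transporters moved apart. Slc16a1 read 9.60 and 11.77 in vector embryoid bodies, 10.72 and 11.27 in those labelled Bmi1, 12.63 and 12.38 in control ES cells and 12.67 and 12.40 in ES cells labelled Bmi1. All embryoid body arrays were lower, but the vector arrays lay more than 2 log2 units from each other. Slc16a1 fell by 1.82 ± 0.62 in the vector arrays (adjusted p = 0.0378), a call lost after quantile normalization (-0.93, adjusted p = 0.24) and when any array but vector replicate 2 was left out, and the difference shrank to -0.73 without vector replicate 1. A much dimmer probe set gave -0.40 without a call. In the arrays labelled Bmi1 the difference was -1.54 ± 0.62 (adjusted p = 0.0661, with block 0.00566). Slc16a3, the transporter of glycolytic cells that export lactate, read 7.89 and 7.65 in vector embryoid bodies, 7.54 and 7.48 in those labelled Bmi1, 6.32 and 5.61 in control ES cells and 6.60 and 6.08 in ES cells labelled Bmi1. It rose by 1.80 ± 0.28 (adjusted p = 0.00166) and by 1.17 ± 0.28 (adjusted p = 0.00991), and the second call was lost without replicate 2 of the ES cells labelled Bmi1 (adjusted p = 0.0728).

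Among the hypoxia response genes the regulator itself differed little by its brightest probe set, while dimmer ones disagreed. Hif1a read 12.03 and 11.88 in vector embryoid bodies, 11.98 and 11.86 in those labelled Bmi1, 12.11 and 12.05 in control ES cells and 12.14 and 12.22 in ES cells labelled Bmi1. Its differences of -0.13 ± 0.16 and -0.26 ± 0.16 were not called, although under quantile normalization it was called higher (0.80 and 0.73) and under median centring lower (-0.45 and -0.60). Its dimmer probe sets did not share a direction in the vector arrays, with -0.17, 1.33 and 1.47, the last below the filter. The probe set at 1.33 was called higher in both comparisons (adjusted p = 0.00507, and 0.88 with adjusted p = 0.0255). The probe set at -0.17 was called lower in the arrays labelled Bmi1 (-0.80, adjusted p = 0.0102). The mean of the probe sets was called higher in the vector arrays (0.63). Hif1a is controlled mainly through the stability of its protein, which these arrays do not measure.

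The hydroxylases that mark Hif1a with oxygen at hand were higher in embryoid bodies. Egln1 read 10.54 and 10.14 in vector embryoid bodies, 9.98 and 10.17 in those labelled Bmi1, 8.36 and 8.18 in control ES cells and 8.81 and 8.69 in ES cells labelled Bmi1. It rose by 2.07 ± 0.20 (adjusted p = 0.000247) and 1.32 ± 0.20 (adjusted p = 0.00141), with all embryoid body arrays above all ES cell arrays. Egln3, the form most readily induced by hypoxia, read 9.78 and 8.90 and 9.37 and 8.93 in the embryoid bodies with vector and labelled Bmi1, and 7.28 and 6.78 and 7.48 and 7.09 in control ES cells and those labelled Bmi1. It rose by 2.31 ± 0.34 (adjusted p = 0.00134) and 1.86 ± 0.34 (adjusted p = 0.00332), again without overlap. The dimmer probe sets gave smaller differences, 1.17 and 0.57 for Egln1 and 0.85 and 0.54 for Egln3, and in the arrays labelled Bmi1 these were not called (adjusted p = 0.108 and 0.111).

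Pyruvate dehydrogenase kinases inhibit pyruvate dehydrogenase, which feeds pyruvate into the citrate cycle, and were not among the rises. Pdk1 read 10.63 and 10.59 in vector embryoid bodies, 10.74 and 11.33 in those labelled Bmi1, 11.71 and 11.56 in control ES cells and 11.94 and 11.32 in ES cells labelled Bmi1. In the vector or control arrays the stages did not overlap and Pdk1 fell by 1.02 ± 0.27 (adjusted p = 0.015), while in the arrays labelled Bmi1 the higher embryoid body value overlapped the ES cells, with -0.59 ± 0.27 and no call. There its 2 other probe sets above the filter were called lower (-1.16, adjusted p = 0.00544, and -1.42, adjusted p = 0.00333), and so was Pdk1 itself with the mean of probe sets (adjusted p = 0.0112), under centring (0.0251) and without replicate 2 of the embryoid bodies labelled Bmi1 (0.04). Pdk3 read 8.88 and 9.00 and 8.66 and 8.75 in embryoid bodies with vector and labelled Bmi1, and 9.40 and 9.33 and 9.38 and 9.42 in control ES cells and those labelled Bmi1. It fell by 0.43 ± 0.15 (adjusted p = 0.0462) and by 0.69 ± 0.15 (adjusted p = 0.00718). None of these falls was called after quantile normalization. The Pdk1 call was also lost with array weights (adjusted p = 0.0577) and without either control ES cell array. The Pdk3 call in the vector arrays was lost with no filter (0.0647), with the robust prior (0.0515), with array weights (0.102) and without any array but vector replicate 2, and that in the arrays labelled Bmi1 without replicate 2 of the ES cells so labelled (0.053).

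Bnip3, whose product sends mitochondria to degradation, read 12.41 and 11.43 in vector embryoid bodies, 12.15 and 11.73 in those labelled Bmi1, 10.05 and 8.98 in control ES cells and 9.81 and 9.35 in ES cells labelled Bmi1. The lowest embryoid body value was well above the highest ES cell value. The rise was 2.41 ± 0.44 (adjusted p = 0.00323) and 2.36 ± 0.44 (adjusted p = 0.00359), although arrays of a group differed by up to 1.07.

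The secreted vascular factors were higher at the later stage. Vegfa, the main growth factor of blood vessels, read 9.56 and 9.65 in vector embryoid bodies, 9.13 and 9.17 in those labelled Bmi1, 6.53 and 6.80 in control ES cells and 6.98 and 6.82 in ES cells labelled Bmi1. It rose by 2.95 ± 0.17 (adjusted p = 4.46e-05) and 2.25 ± 0.17 (adjusted p = 0.000128), and replicates lay within 0.27 of each other. Adm, which encodes the vessel-relaxing peptide adrenomedullin, read 8.88 and 7.55 in vector embryoid bodies, 7.80 and 7.57 in those labelled Bmi1, 5.94 and 5.71 in control ES cells and 6.13 and 6.02 in ES cells labelled Bmi1. It rose by 2.39 ± 0.39 (adjusted p = 0.002) and 1.61 ± 0.39 (adjusted p = 0.0104), the second of which was not called after quantile normalization, without replicate 1 of the embryoid bodies labelled Bmi1 or without replicate 2 of the ES cells so labelled (adjusted p of 0.0508 to 0.0568).

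The stress response genes Ndrg1, Ddit4 and Ankrd37 did not all differ between stages. Ndrg1, a growth arrest and differentiation gene, read 10.75 and 9.71 in vector embryoid bodies, 10.99 and 10.94 in those labelled Bmi1, 8.13 and 8.19 in control ES cells and 8.16 and 8.20 in ES cells labelled Bmi1. It rose by 2.07 ± 0.31 (adjusted p = 0.00146) and 2.79 ± 0.31 (adjusted p = 0.000494), with ES cell arrays within 0.1 of each other. Of its 4 other probe sets 1 was not called in the vector arrays (0.67, adjusted p = 0.0734). Ddit4, an inhibitor of mTOR complex 1, rose by 2.14 ± 0.26 (adjusted p = 0.00061) and 1.00 ± 0.26 (adjusted p = 0.014), the second call being lost under median centring, without replicate 2 of the embryoid bodies labelled Bmi1 (adjusted p = 0.0579) and without replicate 1 of the ES cells so labelled (0.0908). Ankrd37, a common marker of hypoxia with ankyrin repeats, differed by 0.33 ± 0.41 and 0.41 ± 0.41 and was not called.

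The collagen prolyl hydroxylases, which stabilise the collagen helix, rose and the demethylase Kdm3a fell. P4ha2 read 9.97 and 9.12 in vector embryoid bodies, 9.51 and 9.54 in those labelled Bmi1, 6.31 and 5.98 in control ES cells and 7.65 and 7.21 in ES cells labelled Bmi1. Its rise of 3.40 ± 0.30 (adjusted p = 0.000195) was the largest of the members in the vector arrays, and in the arrays labelled Bmi1 it was 2.10 ± 0.30 (adjusted p = 0.00125). P4ha1 rose by 2.03 ± 0.23 (adjusted p = 0.000476) and 1.56 ± 0.23 (adjusted p = 0.00139). The dimmer P4ha1 probe set rose by 3.54 (adjusted p = 0.000161) and 3.07 (adjusted p = 0.000292), more than P4ha2. Kdm3a, which removes methyl groups from histone H3 lysine 9, read 10.93 and 10.89 and 10.33 and 10.69 in embryoid bodies with vector and labelled Bmi1, and 11.85 and 11.83 and 11.29 and 11.43 in control ES cells and those labelled Bmi1. It fell by 0.93 ± 0.18 (adjusted p = 0.00403) and by 0.85 ± 0.18 (adjusted p = 0.00587), and neither fall was called after quantile normalization.

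Embryoid bodies hold many cell types, so these stage differences are those of whole cultures, and fewer cells of a type cannot be told apart from less RNA per cell. The summed signals of most cell type markers moved with the stage. Those of neural markers overlapped (443 to 1448 in embryoid bodies and 1075 to 1174 in ES cells). Endothelial markers ranged from 895 to 1649 in embryoid bodies and 249 to 271 in ES cells, and heart muscle markers from 727 to 4608 and 204 to 222. Of the pluripotency markers 8 of 8 fell in both stage comparisons, with median differences of -2.99 and -3.00. The part of these cell types in the differences of the members was not tested.

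**Figure D2:**
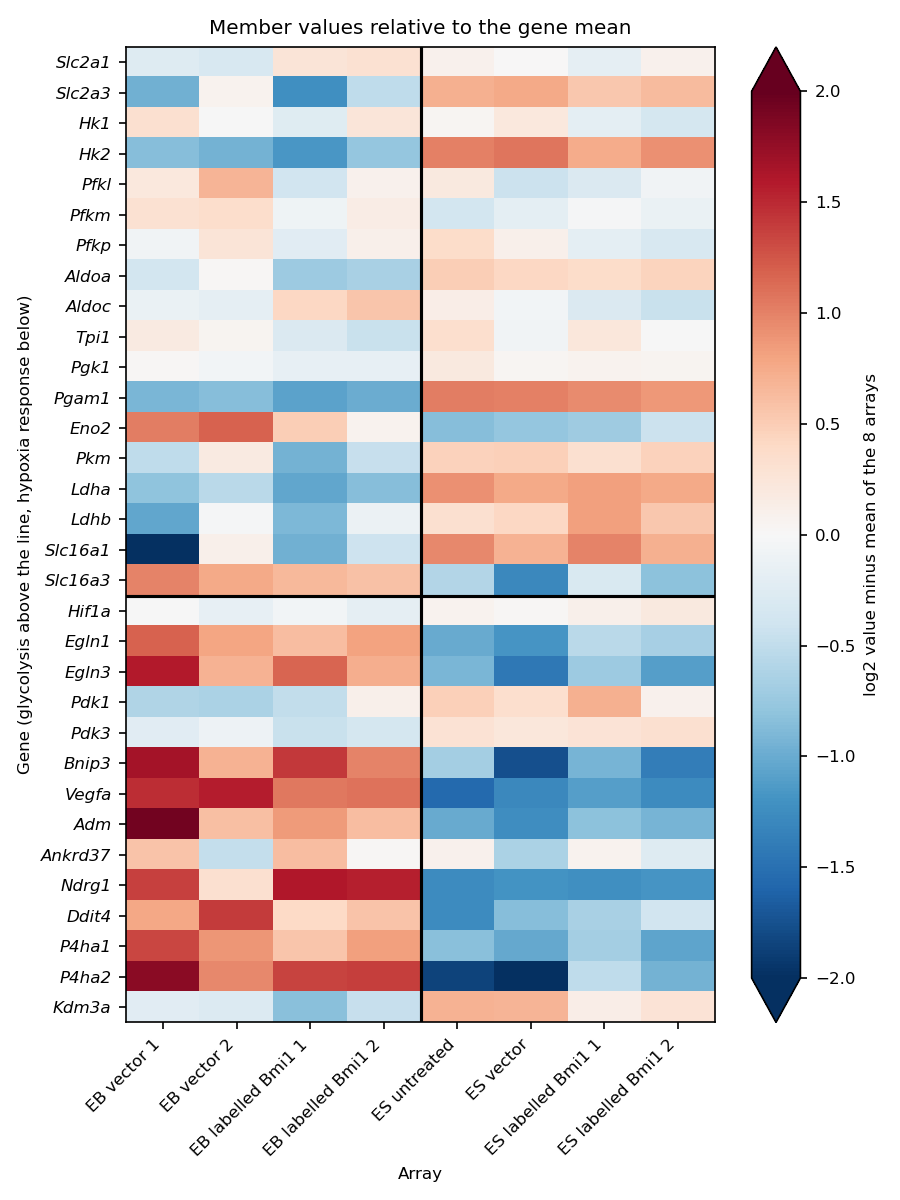
Each cell gives a member's log2 value on an array minus its mean over the 8 arrays, with glycolysis genes above the black line and hypoxia response genes below it, and embryoid bodies left of the vertical line. Most hypoxia response genes are above their mean (red) in embryoid bodies, with Hif1a near its mean and Kdm3a, Pdk1 and Pdk3 mostly below, while Hk2, Pgam1 and Ldha are above theirs in ES cells.

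The Bmi1 label was next compared with vector among embryoid bodies. No member was called: the smallest adjusted p was 0.321 among the glycolysis genes and 0.599 among the hypoxia response genes, and 0.0649 and 0.129 with the set as a block. Of all genes tested 0.139% were called without the block and 2.09% with it, and at an unadjusted p of at most 0.05 there were 5 of 18 and 2 of 14 members, against 7.06% of all genes. The median difference was -0.21 in both lists and -0.04 over all genes. Below 0 were 14 of 18 glycolysis genes and 10 of 14 hypoxia response genes, against 7429 of 12982 genes in all.

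Within the embryoid body sets the glycolysis genes kept their side more often than not. The glycolysis median was -0.29 in the replicate 1 arrays and -0.18 in the replicate 2 arrays, and 12 of the 18 were lower in both sets, against 36.3% of all genes. The hypoxia median was -0.39 and 0.03, with 6 of 14 lower in both. Higher in both sets were 2 glycolysis and 3 hypoxia response genes, against 25.4% of all genes, and 4 and 5 had opposite signs, against 38.1%. The arrays labelled Bmi1 lay wholly below the vector arrays for 9 glycolysis and 5 hypoxia response genes, against 14.4% of all genes, and wholly above for 2 and 2, against 10.8%. Members lay further apart between arrays of vector embryoid bodies (root mean square 0.692) than between those labelled Bmi1 (0.361), and all genes did likewise (0.669 and 0.509).

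The transporter Slc2a1 and the aldolase Aldoc stood on the higher side, while the transporter Slc2a3 (-0.42 ± 0.37) and the main aldolase Aldoa stood on the lower. The dimmer Slc2a3 probe sets gave -1.36, -1.30 and -0.61, none of them called. Slc2a1, the widely expressed glucose transporter, read 13.03 and 13.08 in embryoid bodies labelled Bmi1 and 12.51 and 12.44 in those with vector, with 12.58 and 12.86 in ES cells labelled Bmi1 and 12.85 and 12.78 in control ES cells. The embryoid body groups did not overlap, with a difference of 0.57 ± 0.17, or 0.52 and 0.63 within the sets (adjusted p = 0.417, with block 0.0795). The other Slc2a1 probe sets gave 0.51 and 0.19. Aldoc, whose values stand above, was higher by 0.64 ± 0.17, or 0.54 and 0.73 within the sets (adjusted p = 0.335, with block 0.0649).

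Enzymes in between and after were mostly on the lower side, none of them called. Eno2 had the largest difference of the list, -0.82 ± 0.21, or -0.52 and -1.11 within the sets (adjusted p = 0.321, with block 0.0723), and its groups did not overlap. Pfkl read 8.58 and 9.04 in embryoid bodies labelled Bmi1 and 9.17 and 9.65 in vector embryoid bodies, against 8.67 and 8.89 in ES cells labelled Bmi1 and 9.16 and 8.52 in control ES cells. Its difference was -0.59 ± 0.29 (-0.58 and -0.60 within the sets, adjusted p = 0.752), and the embryoid body groups were apart by little more than 0.1. Pkm read 11.31 and 11.79 and 11.74 and 12.43 in embryoid bodies labelled Bmi1 and vector embryoid bodies, and 12.57 and 12.71 and 12.70 and 12.72 in the ES cells so labelled and in control ES cells. Its embryoid body groups overlapped, with -0.54 ± 0.27 overall and -0.44 and -0.63 within the sets (adjusted p = 0.765). Leaving out 1 array, the Pkm difference ranged from -0.88 to -0.19. Aldoa at -0.52 ± 0.18 (-0.36 and -0.67) and Tpi1 at -0.48 ± 0.20 (-0.46 and -0.51) lay on the same side in both sets.

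The hexokinase Hk2 and the mutase Pgam1, with large stage differences, differed little here, at -0.08 ± 0.19 and -0.14 ± 0.15. Ldha was at -0.27 ± 0.18, and the lactate transporter Slc16a1 had opposite signs in the sets, 1.12 and -0.50, the widest disagreement of the glycolysis list.

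**Figure D3:**
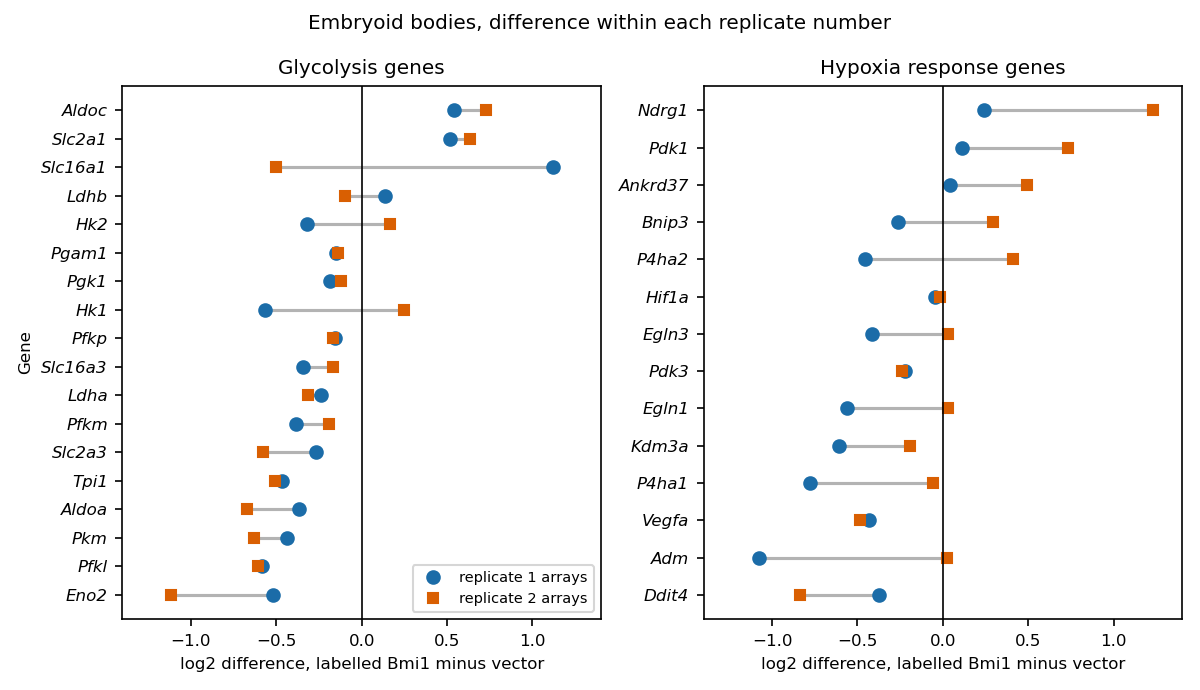
The log2 difference of embryoid bodies labelled Bmi1 minus vector embryoid bodies is plotted for each member within the replicate 1 arrays (circles) and the replicate 2 arrays (squares), which form the separate distribution sets, with a line joining them. Most glycolysis genes lie left of 0 in both sets, with Aldoc and Slc2a1 to the right, and 5 hypoxia response genes change sides.

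Of the hypoxia response genes Ndrg1 was the one furthest above 0, at 0.74 ± 0.31, with 0.24 and 1.23 within the sets (adjusted p = 0.708). The low value of vector replicate 2 (9.71) set it apart in the second set, and the other 4 Ndrg1 probe sets lay between 0.47 and 0.77. Ddit4 read 10.39 and 10.56 in embryoid bodies labelled Bmi1 and 10.76 and 11.39 in vector embryoid bodies, against 9.34 and 9.61 in ES cells labelled Bmi1 and 8.73 and 9.15 in control ES cells. Its embryoid body groups did not overlap, with -0.60 ± 0.26, or -0.37 and -0.84 within the sets (adjusted p = 0.72). Leaving out 1 array, the Ddit4 difference ranged from -0.92 to -0.29. Vegfa was lower by a like amount in both sets (-0.43 and -0.49), -0.46 ± 0.17 overall (adjusted p = 0.599).

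For Adm and Pdk1 the probe sets differed from each other. Adm differed by -0.53 ± 0.39, from -1.07 in the first set and 0.02 in the second, where vector replicate 1 (8.88) stood above the other embryoid body arrays. Without vector replicate 2 it was called lower, at -1.19 (adjusted p = 0.048), where 1.68% of all genes were called, and without vector replicate 1 it was 0.14. The dimmer Adm probe set was lower in both sets (-0.90 and -0.67), at -0.78 overall with no call (block adjusted p = 0.0837). Pdk1 was at 0.42 ± 0.27 (0.11 and 0.73), while its other probe sets above the filter gave -0.02 and -0.18. Hif1a, at -0.03 ± 0.16, and P4ha2, at -0.02 ± 0.30, differed by less than their errors. The other Hif1a probe sets above the filter gave -0.43 and -0.58 and were lower in both sets, with no call (block adjusted p = 0.195 and 0.146).

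Markers of some cell types moved with this comparison too, though none was called without the block and some were with it. Endothelial markers summed to 895 to 987 in embryoid bodies labelled Bmi1 and 1575 to 1649 in vector embryoid bodies, with 5 of 5 tested below 0, and primitive red cell markers to 1118 to 1941 and 3708 to 4754, with 4 of 4 below 0. Heart muscle markers summed to 4006 to 4608 and 727 to 2975, with 5 of 6 above 0, and trophoblast markers to 1973 to 2219 and 760 to 1065, with 5 of 5 above 0. Neural markers summed to 443 to 619 and 789 to 1448, with 6 of 6 below 0. The sums overlapped for pluripotency markers (8198 to 17496 and 6620 to 20949) and visceral endoderm markers (3243 to 5888 and 3516 to 4176). Those of macrophage markers overlapped as well (1545 to 2210 and 689 to 3334). Their part in the differences of the members was not tested.

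ES cells labelled Bmi1 were compared with the control ES cells, 1 untreated and 1 with the empty vector. Again no member was called, with a smallest adjusted p of 0.772 in the glycolysis list and 0.278 in the hypoxia list, and 0.147 and 0.0668 with the block, where 0.0462% and 1.66% of all genes were called. The block covers embryoid body arrays only, so it acts here through the spread that the groups share. At an unadjusted p of at most 0.05 there were 1 of 18 and 3 of 14, against 6.29% of all genes. The hypoxia median was 0.14, with 12 of 14 above 0, and the glycolysis median -0.06, with 5 of 18 above 0. The median of all genes was 0.00, with 6630 of 12982 above 0. Groups did not overlap on the higher side for 3 glycolysis and 6 hypoxia response genes, against 25.1% of all genes, and on the lower side for 6 and 1, against 20.6%.

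P4ha2 had the largest difference. Its values of 7.65 and 7.21 in ES cells labelled Bmi1 lay above 6.31 and 5.98 in control ES cells, by 1.28 ± 0.30 (adjusted p = 0.278, with block 0.0668). It was called only when arrays were weighted (adjusted p = 0.00721), a setting that called 4.94% of all genes. Ddit4 was higher by 0.54 ± 0.26, Egln1 by 0.48 ± 0.20 and Egln3 by 0.26 ± 0.34, of which Egln3 overlapped between the groups, and the dimmer Egln3 probe set gave -0.08. Kdm3a, at 11.29 and 11.43 against 11.85 and 11.83, was lower by 0.48 ± 0.18 (adjusted p = 0.681, and 0.0405 with array weights).

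In the glycolysis list Pfkp read 9.36 and 9.23 in ES cells labelled Bmi1 and 9.91 and 9.65 in control ES cells, against 9.32 and 9.65 and 9.47 and 9.81 in the embryoid bodies labelled Bmi1 and with vector. Its ES cell groups were apart, with -0.49 ± 0.21 (adjusted p = 0.796). Hk1 read 7.93 and 7.79 against 8.17 and 8.35 in ES cells, and 7.88 and 8.37 against 8.45 and 8.12 in embryoid bodies. It was at -0.40 ± 0.22 and its dimmer probe set at 0.13. Aldoc, at -0.40 ± 0.17, was lower without overlap. Slc16a3, at 0.37 ± 0.28, overlapped. Ldhb read 11.24 and 10.96 in ES cells labelled Bmi1 and 10.75 and 10.83 in control ES cells, against 9.52 and 10.30 and 9.39 and 10.40 in embryoid bodies, and its difference in ES cells was 0.31 ± 0.38. The control arrays differ in treatment, and members lay further apart between them (root mean square 0.345) than between the ES cells labelled Bmi1 (0.261), whereas all genes lay closer (0.232 against 0.267).

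The difference between these comparisons, embryoid bodies minus ES cells, was tested in the same fit. No member passed, nor did any other gene without the block (0%, with 887 of 12982 at an unadjusted p of at most 0.05 and 0.824% called with the block). The smallest adjusted p of a member with the block was 0.0615, for Aldoc. The median difference was -0.25 in the glycolysis list, -0.36 in the hypoxia list and -0.06 over all genes. Of the 32 members, 5 had groups that did not overlap in either stage but lay on opposite sides, namely Pfkm, Aldoc, Eno2, Vegfa and Ddit4, against 5.59% of all genes.

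**Figure D4:**
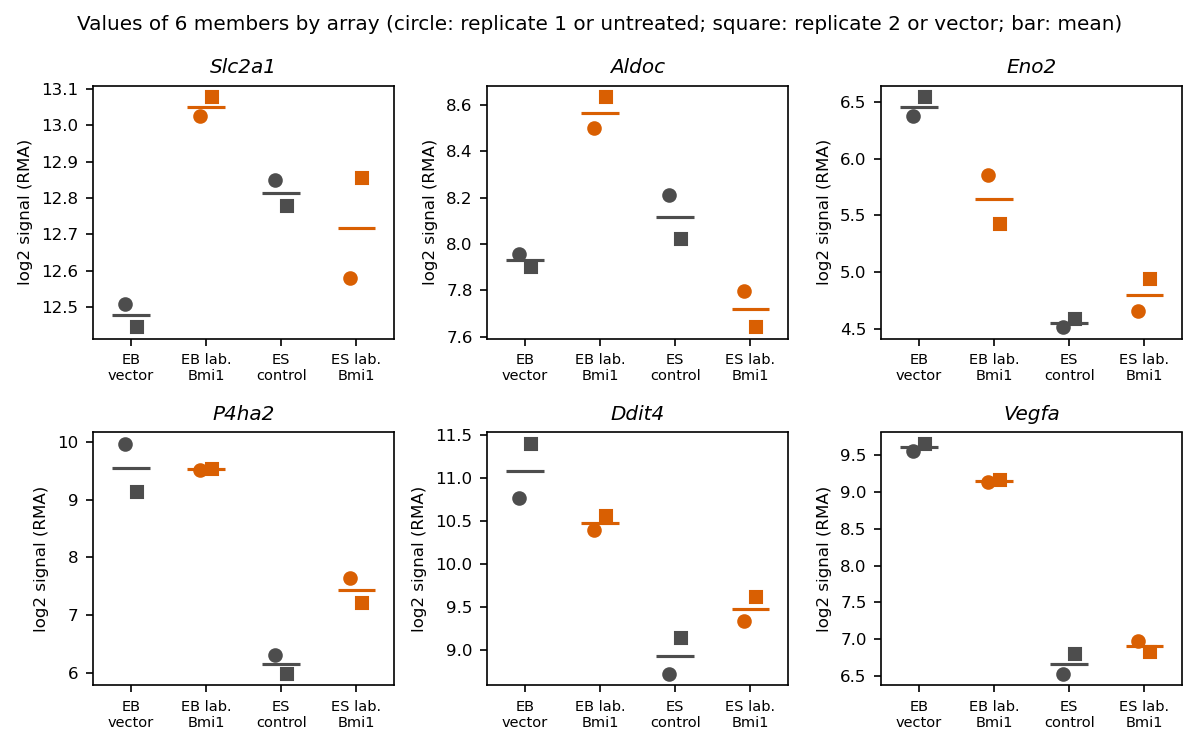
Log2 signals on each array are plotted for Slc2a1, Aldoc, Eno2, P4ha2, Ddit4 and Vegfa in the 4 groups, where circles are replicate 1 or untreated arrays, squares replicate 2 or empty vector arrays, and bars the mean of 2. Slc2a1 and Aldoc are higher and Eno2, Ddit4 and Vegfa lower in embryoid bodies labelled Bmi1 (EB lab. Bmi1) than in vector embryoid bodies, and P4ha2 is higher in ES cells labelled Bmi1 than in control ES cells. The vertical axes differ and do not start at 0.

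Other genes of the same pathways were taken from whole lists and not picked one by one. Of 28 other hypoxia pathway genes tested, 9 rose and 8 fell in vector embryoid bodies against control ES cells, and 7 rose and 5 fell in the arrays labelled Bmi1, with median differences of 0.20 and -0.12. Of all genes 22.7% rose and 35.8% fell, and 21.2% rose and 38% fell. After quantile normalization the list had 12 higher and 4 lower, and 10 and 2, and after centring 7 and 10, and 4 and 12. Among the rises were the collagen cross-linking enzyme Lox (4.11 and 3.87) and the glycogen regulator Ppp1r3c (3.44 and 3.37). Epas1, the second hypoxia-inducible factor subunit, was among the falls (-1.83 and -1.16).

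Between embryoid bodies labelled Bmi1 and vector embryoid bodies none of the 28 was called without the block, and 2 were with it, where 2.09% of all genes were. Tfrc, the transferrin receptor, read 12.12 and 12.25 against 10.65 and 11.13, a difference of 1.30 ± 0.20 (1.47 and 1.12 within the sets), with adjusted p = 0.0921, and 0.0109 with the block. Stc2, the secreted glycoprotein stanniocalcin 2, read 6.56 and 7.61 against 7.56 and 9.11, a difference of -1.25 ± 0.52 (-0.997 and -1.505), with adjusted p = 0.686, and 0.0188 with the block. Tfrc was also called without the block when vector replicate 2 was left out (adjusted p = 0.0147). The Stc2 difference ranged from -2.03 without vector replicate 1 to -0.47 without vector replicate 2, and its other probe sets gave -0.40 and -0.41. The groups of Tfrc were apart, whereas those of Stc2 overlapped. In ES cells none was called, and the largest differences were those of the lysyl hydroxylase Plod2 (0.69 ± 0.27), which was called with array weights (adjusted p = 0.0449), and Stc2 (0.62 ± 0.52).

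Of 10 other genes around glycolysis, 2 rose and 2 fell in each stage comparison. Of all genes 22.7% rose and 35.8% fell in the vector or control arrays, and 21.2% rose and 38% fell in those labelled Bmi1. Those that rose were Pfkfb3, which makes the activator of phosphofructokinase (1.74 and 0.81), and the insulin-regulated glucose transporter Slc2a4 (1.80 and 2.01). Those that fell were Bpgm, the bisphosphoglycerate mutase (-1.44 and -1.88), and Tigar, a fructose bisphosphatase induced by p53 (-2.42 and -2.01). None was called in a comparison of arrays labelled Bmi1 with controls, where the largest differences were -0.39 ± 0.48 for Eno3 and -0.36 ± 0.40 for Bpgm in embryoid bodies and 0.67 ± 0.17 for Pfkfb3 and -0.38 ± 0.48 for Eno3 in ES cells. With array weights Pfkfb3 was called in ES cells (adjusted p = 0.0139), while its other probe set gave 0.03.

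Mitochondrial genes, the other route of pyruvate, were mostly lower in embryoid bodies in the deposited values but not after quantile normalization. Of 27 genes of pyruvate entry, the citrate cycle and the respiratory chain, 20 fell and none rose in vector embryoid bodies, and 19 fell and none rose in the arrays labelled Bmi1. Of all genes 35.8% and 38% fell. The medians of the list were -0.88 and -0.80, and after quantile normalization -0.0042 and 0.15, with 4 called higher and 5 lower, and 8 higher and 3 lower. The largest fall was that of Uqcrc1, a core subunit of complex III (-2.19 and -2.30). Between embryoid bodies labelled Bmi1 and vector embryoid bodies none was called, and the median was 0.07. Above 0 were 17 of 27, against 5548 of 12982 genes in all. The largest differences were those of Idh3a (0.53 ± 0.17), a citrate cycle dehydrogenase, and Cox5a (0.40 ± 0.15), a subunit of cytochrome oxidase. In ES cells none was called, with -0.27 ± 0.27 for Uqcrc1 and -0.26 ± 0.16 for citrate synthase Cs.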

How the data were processed

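The deposited values are log2 signals. The submitters' processing notes name RMA, without a version and without saying which arrays shared a run. RMA corrects background, brings the arrays of a run to 1 distribution and summarises probes, and the 3 sets of distributions mean that stage differences can hold a part due to scaling. Affymetrix one-cycle labelling was used, per the labels. Of 45037 probe sets other than 64 controls, 34945 carried 1 symbol in the platform annotation, 932 several and 9160 none, and 204 symbols were not matched to the current gene table. Genes above the array median on at least 2 arrays were tested: 12982, with 5211 left out as dim. Limma 3.58.1 in R 4.3.3 (lmFit, eBayes) fitted 4 groups to 8 arrays with 4 residual degrees of freedom, two-sided, Benjamini-Hochberg adjusted, and 3 with the block. The fit without the block was tried on simulated data, for bias and direction in the embryoid body comparison. The simulated arrays had no set effect, unlike the deposited ones.

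The labels give embryoid body and ES cell arrays numbers. Deviations of number 1 arrays from their group means correlated at r = 0.72 between the embryoid body groups, and at 0.03 and 0.04 with the ES cells labelled Bmi1, so the block is the number of the embryoid body arrays. Precision is limited by the number of arrays.

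The members and the gene lists were chosen with earlier results of these data known. Genes given with every array were the 5 with the largest difference of each list in the comparisons of arrays labelled Bmi1 with controls, and the 3 largest rises and 3 largest falls of each list between stages. Of the other lists, genes called in either fit were named, otherwise the 2 with the largest difference. Further members are named to complete the path and were chosen after their values were seen, among them Slc2a3 and Hif1a, which are also given with every array. Alternatives changed the filter, the probe set, the scaling, the prior, array weights, the arrays in the fit and the block.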

Additional observations from a re-analysis of the deposited data

Results flagged for a closer look

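In 5 members every array labelled Bmi1 lay on one side of its controls in embryoid bodies and on the other side in ES cells. Aldoc was higher in embryoid bodies (0.64) and lower in ES cells (-0.40), with a difference of these values of 1.03 ± 0.23 and limma adjusted p = 0.3, or 0.0615 with the block for embryoid body sets. The other 4 went the opposite way. Eno2 was at -0.82 in embryoid bodies and 0.24 in ES cells (adjusted p of the difference 0.452, with block 0.104), and Ddit4 at -0.60 and 0.54 (adjusted p 0.542, with block 0.11). Vegfa was at -0.46 and 0.24 (adjusted p 0.598, with block 0.142), and Pfkm at -0.29 and 0.20 (adjusted p 0.841, with block 0.22). None of these tests passed the threshold, and 5.59% of all genes tested had arrays in this arrangement.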

How the results depend on the processing

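The number of members called kept within 1.5 times its value under the other filters, probe set rules, scalings, priors and array choices, with these exceptions: 2 members of 32 were called in ES cells with array weights (P4ha2 higher, Kdm3a lower; 4.94% of all genes), and 1 (Adm) in embryoid bodies without vector replicate 2 (1.68% of all genes), so that leaving out 1 array gave 0 to 1 there, 15 to 23 in vector or control arrays between stages and 15 to 22 in those labelled Bmi1. With the replicate block no member was called in embryoid bodies, in ES cells or in the difference of these, while 24 and 23 were called between stages, against 21 and 21 without it. Numbers of the ES cell arrays pair with nothing. The share of all genes called between stages also moved with these settings. The members' counts between stages therefore do not show whether they were more stable than other genes.

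Stage medians moved with the scaling and the filter. In vector or control arrays the glycolysis median was -0.48 with the stricter filter, -0.021 for the mean of probe sets, 0.33 after quantile normalization and -0.58 after median centring, and the hypoxia median 1.60 for the mean of probe sets and 2.43 after quantile normalization. In arrays labelled Bmi1 the glycolysis median was -0.79, -0.15, 0.49 and -0.70 under these settings in turn, and the hypoxia median 1.10, 1.81 and 1.10 for the mean of probe sets, quantile normalization and median centring. Leaving out 1 array, medians ranged in embryoid bodies from -0.37 to -0.13 (glycolysis) and -0.42 to 0.09 (hypoxia), and in ES cells from -0.12 to 3e-04 and 0.025 to 0.31. For the difference of these they ranged from -0.45 to -0.049 and -0.59 to -0.084. Between stages they ranged from -0.33 to -0.20 and 1.77 to 2.27 in vector or control arrays, and from -0.42 to -0.29 and 1.32 to 1.53 in those labelled Bmi1.

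Between stages, signs that turned after quantile normalization among the genes given with every array included those of Pdk3 (0.036, vector or control arrays) and of Kdm3a (0.048) and Pdk1 (0.37), arrays labelled Bmi1. In all, 8 and 5 of the 32 members turned in these comparisons, Aldoa (0.34), Pkm (0.33) and Slc2a1 (0.61) among them in the vector or control arrays. In embryoid bodies they were Adm (0.14 without vector replicate 1, range -1.19 to 0.14), and, without replicate 1 labelled Bmi1 or vector replicate 2, Eno3 (0.059 and 0.33, range -1.10 to 0.33) and Bpgm (0.16 and 0.091, range -0.88 to 0.16), and Pdk1 (-0.018 and -0.18, other probe sets). In ES cells they were Hk1 (0.13) and Egln3 (-0.076), other probe sets. The causes were not tested. A fit that leaves 1 array in a group assumes that it varies like the other groups, and signal near background limits the size of differences in dim genes such as Eno2.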

Other observations

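Within each of the 4 groups the arrays differed in the level of Bnip3, on the log2 scale by 0.42 (labelled Bmi1) and 0.98 (vector) in embryoid bodies and by 0.46 (labelled Bmi1) and 1.07 (control) in ES cells. The oxygen sensor Egln3 was higher on the same array of each group, by 0.44, 0.88, 0.39 and 0.50, and so was Ankrd37, by 0.60, 1.05, 0.33 and 0.71. Outside the members, the lipase inhibitor Angptl4 (0.67, 1.39, 0.79 and 0.30) and the glycogen regulator Ppp1r3c (0.39, 0.91, 0.31 and 0.50) did the same. The higher arrays were those of replicate 1 in the numbered groups and the untreated array among the control ES cells. This arrangement, with more than 0.2 in every group, held for 2 of the 13 other hypoxia response members (15.4%), 2 of the 28 other hypoxia pathway genes (7.14%), 0 of 18 glycolysis genes and 0 of 27 mitochondrial genes, against 122 of 12981 genes in all (0.94%). By sign alone it held for 3 of 13 (23.1%), 6 of 28 (21.4%), 3 of 18 (16.7%) and 2 of 27 (7.41%), against 9.78% of all genes. The opposite sign in every group was seen for 1 of 13, 5 of 28, 2 of 18 and 3 of 27, against 2081 of 12981. The 1 of 13 was Ddit4 (-0.16, -0.63, -0.28 and -0.41). The arrangement was noticed after the values were seen, the cut of 0.2 was not fixed beforehand, and no test was made.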
